A study of Mus musculus with 12 samples.

Results

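The genes described here are 10 transcription factors known from mesenchymal cells: Twist1, Twist2, Tcf21, Prrx1, Prrx2, Snai1, Snai2, Zeb1, Zeb2 and Foxc1. They were chosen by name, by a rule that uses no measured value, out of 21938 protein-coding genes in the GENCODE M21 annotation of the mm10 mouse genome. Earlier results of these data were known when the choice was made. For each gene, every called peak that touched the gene body or the 50000 bp on either side of it was read, and this stretch is called the gene's window. Chromatin immunoprecipitation followed by sequencing (ChIP-seq) had been carried out for acetylation of lysine 27 of histone H3 (H3K27ac), a mark of active promoters and enhancers, and for trimethylation of lysine 4 (H3K4me3), a mark found mainly at promoters. The cells were mesenchymal stem cells (MSCs), labelled as bone-marrow cells of mice aged 3 to 5 months. They were grown at 2% oxygen (hypoxia) or 21% oxygen (normoxia) and purified by flow cytometry on day 12 according to the labels. No genotype or treatment other than oxygen separated the groups. According to the study's methods the cells came from bone of wild-type male C57BL6/N mice and the sort kept CD45-/Ter-119-/Sca-1+/CD140a+ cells. All cells were first kept in hypoxia, and the normoxia cells were moved to the higher oxygen level after the sort, whereas the labels describe culture at either oxygen level before the sort. The 12 libraries formed 6 groups of 2, namely each mark and an input control at each oxygen level.

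The processed data were 4 peak lists, 1 per mark and oxygen level, in which both libraries of a group are pooled. Each peak has coordinates and a score, but no read count and no value per library. Depth, the signal of the inputs and the spread between replicates were therefore not analysed here, and no difference between oxygen levels below has a replicate check. Intervals are 95% Wilson intervals, which reflect counting error alone and take no account of dependence between peaks close together on a chromosome. Peaks of different lists that overlapped had identical borders, so each such interval is called a segment. A segment was shared when it stood in the lists of both oxygen levels for a mark, and hypoxia-only or normoxia-only when it stood in 1 of them.

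Transcription factors of these families hold cells in a mesenchymal state. The Snail and Zeb zinc-finger proteins bind E-box sequences at epithelial genes such as Cdh1, which encodes E-cadherin, and repress them, and Twist proteins act with them when epithelial cells turn into migrating mesenchymal cells. The Prrx homeodomain proteins are known from limb and craniofacial mesenchyme and its skeletal descendants, Foxc1 from skull development and the stromal cells of bone marrow, and Tcf21 from the mesenchyme of internal organs.

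The first question was whether the factors carried marks of an active promoter in these cells. H3K4me3 lay within 1000 bp of an annotated start of 9 of the 10 genes, all but Tcf21, in both oxygen lists. Over all coding genes the share was 58.9% in each list. H3K27ac lay at a start of 8 genes, all but Tcf21 and Twist2, in both lists, beside 37.6% of all coding genes in hypoxia and 37.0% in normoxia. The 10 genes have 22 annotated starts, and 17 of these lay in a segment that carried both marks at both oxygen levels. Of these 17, 8 were starts of Zeb2 and 3 of Prrx1. Starts of a gene often shared a segment, so they are not independent, and the share over all annotated starts was not determined. In all, the windows held 47 segments, of which 41 had H3K27ac and 20 had H3K4me3. The nearest coding start was a member's own for 30 segments and that of another gene for 17, so a peak in a window need not belong to the factor.

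**Figure D1:**
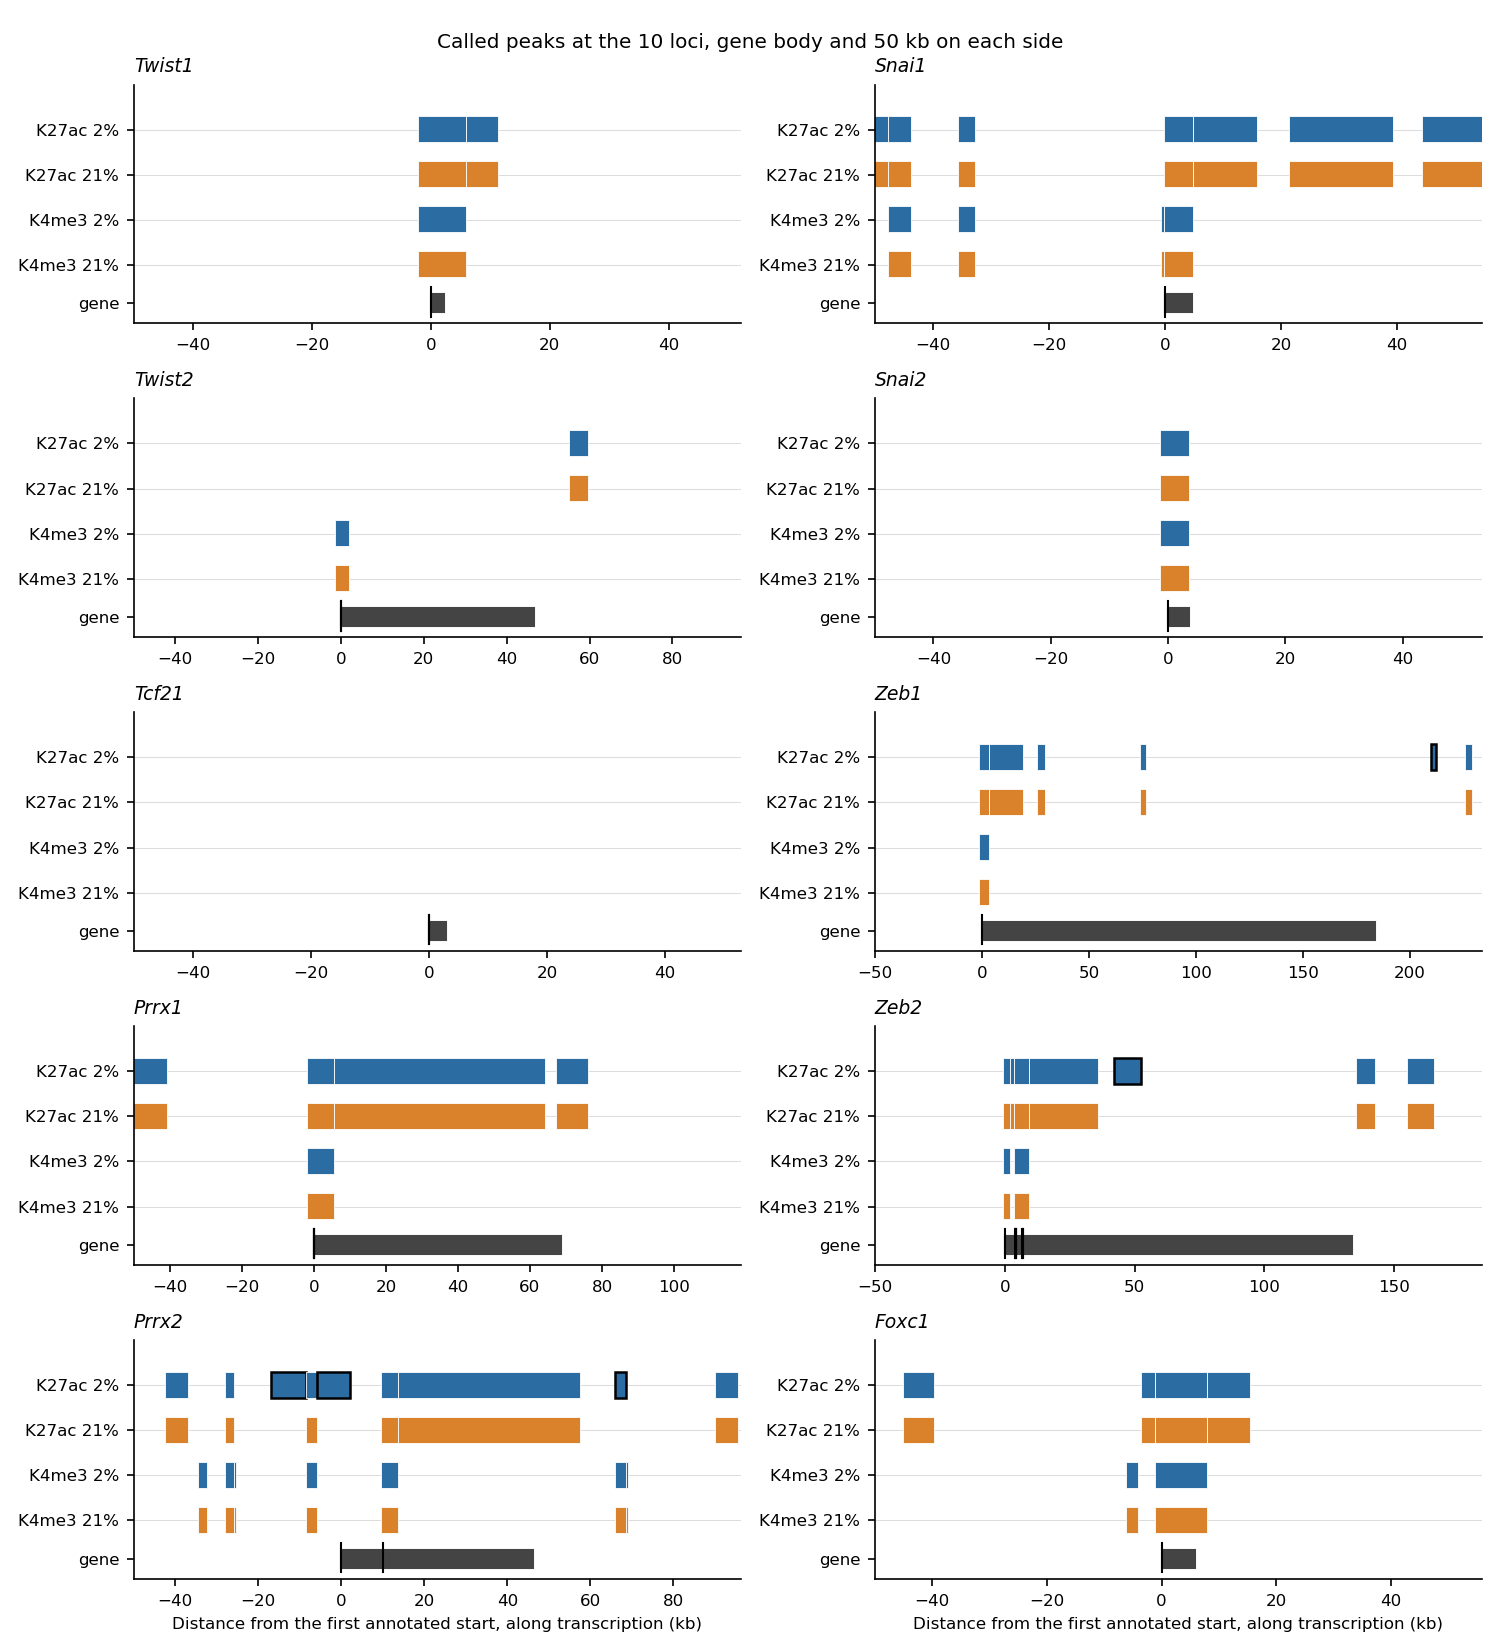
Called peaks in the window of each of the 10 genes, with a row for each mark and oxygen level and the gene drawn below. The horizontal axis is the position in kb, ticks on the gene mark annotated starts, and black outlines mark the 5 hypoxia-only H3K27ac peaks, which lie in the windows of Prrx2, Zeb1 and Zeb2. Tcf21 has no peak.

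The 3 basic helix-loop-helix factors differed from each other at their starts. Twist1, which takes part in cranial suture and limb development, had both marks over its whole gene body (chr12:33957671-33959829). A segment of 8.0 kb with both marks held the start and touched a further H3K27ac segment of 5.5 kb, to chr12:33969000. The H3K27ac score of the first was 132 in hypoxia and 132 in normoxia, and that of the second was 96 and 90. Twist2, its close relative in dermal and bone progenitors, carried H3K4me3 over 3.5 kb at its start without H3K27ac at either oxygen level. The only H3K27ac peak of its window was 4.5 kb wide and lay 55 kb downstream of the start, beyond the end of the gene, with a score of 86 in hypoxia and 96 in normoxia. Tcf21 (chr10:22817281-22820174) had no peak of any list in its window. The nearest peak of either mark lay 84.3 kb away, at Tbpl1, and was shared. The 3 starts thus stood for both marks, H3K4me3 alone and neither mark.

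Because these starts differed in their marks, the 250 bases before each are shown 5′ to 3′ on the strand of the gene, read from the RefSeq GRCm38.p6 genome, which is the mm10 build. Capitals mark the letters ACGTG or GCGTG, the core of the site that hypoxia-inducible factors bind, in either orientation (CACGT and CACGC on the other strand). The E-box CAGGTG and its reverse CACCTG were searched as well. Of 41488 such stretches at all annotated coding starts, 17.7% held ACGTG, 33.5% held GCGTG and 16.6% held CAGGTG. The stretches cover chr12:33957421-33957670 (plus strand) for Twist1, chr1:91801211-91801460 (plus strand) for Twist2 and chr10:22820175-22820424 (minus strand) for Tcf21.
Twist1: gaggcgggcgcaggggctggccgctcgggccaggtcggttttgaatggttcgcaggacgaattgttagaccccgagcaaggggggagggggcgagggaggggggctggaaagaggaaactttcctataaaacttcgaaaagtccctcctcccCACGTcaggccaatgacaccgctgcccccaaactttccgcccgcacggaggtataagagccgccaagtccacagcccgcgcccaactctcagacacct
Twist2: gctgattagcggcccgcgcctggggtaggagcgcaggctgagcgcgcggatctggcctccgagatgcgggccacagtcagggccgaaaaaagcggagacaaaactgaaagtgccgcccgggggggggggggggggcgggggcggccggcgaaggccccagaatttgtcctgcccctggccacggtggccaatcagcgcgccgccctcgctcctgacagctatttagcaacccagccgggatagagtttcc
Tcf21: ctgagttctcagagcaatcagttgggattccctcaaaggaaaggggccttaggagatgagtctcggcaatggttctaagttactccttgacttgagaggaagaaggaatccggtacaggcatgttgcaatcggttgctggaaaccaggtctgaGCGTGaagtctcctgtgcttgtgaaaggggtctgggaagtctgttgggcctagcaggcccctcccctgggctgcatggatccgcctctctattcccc

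Twist1 held ACGTG 98 bases before the start, Tcf21 held GCGTG 97 bases before it, and Twist2 held none of the 3 motifs in this stretch. The GC content was 62.4% for Twist1, 68.8% for Twist2 and 54.0% for Tcf21, with a median of 55.6% over all promoters. The ratio of observed to expected CpG, which is high in CpG islands, was 0.74, 0.79 and 0.28 in that order, with a median of 0.53 over all promoters. Twist1 and Twist2 thus both had CpG-rich promoters and H3K4me3, while H3K27ac lay at the start of Twist1 alone.

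The 2 Prrx genes had the widest H3K27ac of the 10. Prrx1 (chr1:163245119-163313710, minus strand) had H3K27ac over 95.6% of its gene body at both oxygen levels. A single segment of 58.5 kb within the gene, chr1:163249501-163308000, ranked 59 by width among the 15421 H3K27ac segments of the series. It touched a segment of 7.5 kb that held the 3 annotated starts and carried H3K4me3 too, and both had a score of 142 in each list. A further H3K27ac segment of 10 kb lay 40.8 kb upstream of the start, with a score of 138 in hypoxia and 95 in normoxia. Its nearest coding start was that of Gorab, 39169 bp away. All 4 segments with H3K27ac in the Prrx1 window were present in both lists.

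Prrx2 (chr2:30834972-30881251, plus strand) had 12 segments in its window, 9 of them with H3K27ac in hypoxia and 6 in normoxia. Its gene body was covered by H3K27ac for 83.8% in hypoxia and 79.4% in normoxia. The annotation gives 2 starts, and they differed in their marks. The downstream start, at 30845059, lay in a segment of 4.0 kb with both marks at both oxygen levels, which touched a shared H3K27ac segment of 44.0 kb over the rest of the gene. The score at this start was 1000 in hypoxia and 86 in normoxia, and the 44.0 kb segment stood at 1000 in both lists. The upstream start, at 30834972, lay in a hypoxia-only H3K27ac segment of 8.0 kb, chr2:30829001-30837000, that carried no H3K4me3. The same segment also held a start of Asb6, a gene of the ankyrin and SOCS box family, so it cannot be assigned to 1 of the 2 genes. A second hypoxia-only segment of 8.5 kb lay further upstream at chr2:30818001-30826500. Its nearest coding start was that of Asb6, 3833 bp away, whereas the upstream Prrx2 start lay 8472 bp away. A shared segment of 2.5 kb with both marks filled the space between them, and the 3 together made a stretch of 19.0 kb in hypoxia.

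The stretches before both Prrx2 starts are shown because they differed in their marks, the upstream one with H3K27ac in the hypoxia list alone and the downstream one with both marks in both lists. They cover chr2:30834722-30834971 and chr2:30844809-30845058 on the plus strand, and neither holds any of the 3 motifs, so no letter is in capitals.
Prrx2 upstream start: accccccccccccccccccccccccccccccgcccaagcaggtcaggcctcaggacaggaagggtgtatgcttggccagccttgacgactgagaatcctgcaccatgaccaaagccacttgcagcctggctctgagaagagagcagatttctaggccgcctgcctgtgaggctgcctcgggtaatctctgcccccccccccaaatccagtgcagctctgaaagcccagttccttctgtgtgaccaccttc
Prrx2 downstream start: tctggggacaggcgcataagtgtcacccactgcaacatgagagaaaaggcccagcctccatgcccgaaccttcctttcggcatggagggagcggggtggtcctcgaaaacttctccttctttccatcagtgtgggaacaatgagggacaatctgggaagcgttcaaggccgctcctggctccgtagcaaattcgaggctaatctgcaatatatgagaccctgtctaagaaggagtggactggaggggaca

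The GC content was 63.6% before the upstream start and 54.4% before the downstream start, and the ratio of observed to expected CpG was 0.17 and 0.49. The hypoxia-only peak at the upstream start had a score of 60, and 12.9% of the hypoxia H3K27ac peaks on chromosome 2 scored as low or lower. The second upstream peak scored 51, with 2.0% as low or lower. The remaining hypoxia-only peak of the window, 2.5 kb wide with a score of 50, carried shared H3K4me3 and lay at the start of Ptges, which encodes a prostaglandin E synthase. It had 0.77% of the chromosome's peaks at or below it, and all 3 thus scored low for the chromosome.

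The Snail factors both had both marks at their start but differed in what surrounded them. Snai2 (chr16:14705852-14709385), a repressor also needed in neural crest cells, had a single segment of 5.0 kb in its window. It covered the whole gene, carried both marks and had an H3K27ac score of 1000 in both lists. Snai1 (chr2:167538195-167542814), which represses the E-cadherin gene, had 7 H3K27ac segments at both oxygen levels. The segment at its start was 5.0 kb wide with a score of 135 in hypoxia and 109 in normoxia. Snai1 was followed downstream by 3 shared H3K27ac segments without H3K4me3, of 11, 18.0 and 19.0 kb, all at a score of 1000 in both lists. The most distant of them was nearest the start of Ube2v1. The other 3 H3K27ac segments lay upstream, and the starts nearest to them belong to other genes, among them Rnf114. The nearest H3K27ac peak outside the window lay 86.7 kb from Snai1 and 174 kb from Snai2.

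The Zeb genes were long and had H3K27ac inside and outside the gene. Zeb1 had a segment of 4.5 kb with both marks at its start, at a score of 1000 in both lists, followed by a shared H3K27ac segment of 16.0 kb with scores of 63 and 62. Only 14.2% of its gene body carried H3K27ac. Its window held 6 H3K27ac peaks in hypoxia and 5 in normoxia. The hypoxia-only peak was 2.5 kb wide, lay beyond the end of the gene and had a score of 55, with 6.9% of the chromosome's peaks as low or lower. Zeb2 (chr2:44983632-45117395, minus strand), a factor also active in neural and blood cells, has 8 annotated starts, all in segments with both marks at both oxygen levels. The 2 segments that held them were 6.0 kb and 2.5 kb wide, both at a score of 1000. Within the gene a shared H3K27ac segment of 26.5 kb followed, with a score of 70 in hypoxia and 56 in normoxia.

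The widest hypoxia-only peak of the 10 windows lay in Zeb2. It spanned 10.5 kb of intron, chr2:45065001-45075500, 34.8 kb downstream of the nearest Zeb2 start, without H3K4me3. Its score was 83, and 32.8% of the chromosome's hypoxia peaks scored as low or lower. With it, H3K27ac covered 34.7% of the gene body in hypoxia and 26.8% in normoxia. Zeb2 was the only one of the 10 genes with a hypoxia-only peak wholly inside its body.

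Foxc1 (chr13:31806633-31812476) had both marks over its whole gene body. A segment of 9.0 kb held both marks with an H3K27ac score of 1000 in both lists, and H3K27ac segments of 2.5 kb upstream and 7.5 kb downstream touched it. The upstream one scored 58 in hypoxia and 56 in normoxia, and the downstream one 121 and 104. A more distant segment of 5.5 kb scored 109 and 103. All 4 were present in both lists.

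The sequence covered by H3K27ac in each window was compared across the genes. In hypoxia Prrx1 had 84.2 kb and Prrx2 82.5 kb, followed by Zeb2 with 64.5 kb, Snai1 with 53.6 kb, Zeb1 with 33.5 kb and Foxc1 with 24.5 kb. Twist1 had 13.5 kb, Snai2 5.0 kb, Twist2 4.5 kb and Tcf21 none. The median over the 10 was 29 kb in hypoxia and 27.8 kb in normoxia, beside 4 kb in each list over all coding windows. The first 5 of these genes had more than 90% of all coding windows. Member windows had a median length of 126 kb and all coding windows one of 117 kb, and longer windows can hold more. As a share of the window in hypoxia, H3K27ac covered 56.4% at Prrx2, 51.3% at Snai1 and 49.9% at Prrx1. It covered 27.6% at Zeb2, 23.1% at Foxc1, 13.2% at Twist1 and 11.8% at Zeb1, so the order differed from that by length. H3K4me3 cover ran from 0 kb at Tcf21 to 14 kb at Prrx2. None of the 10 was above 90% of coding windows for this mark, and Prrx2 stood above 89.7%. No replicate spread is known for the covered lengths, so neighbours in the order by length were not tested.

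**Figure D2:**
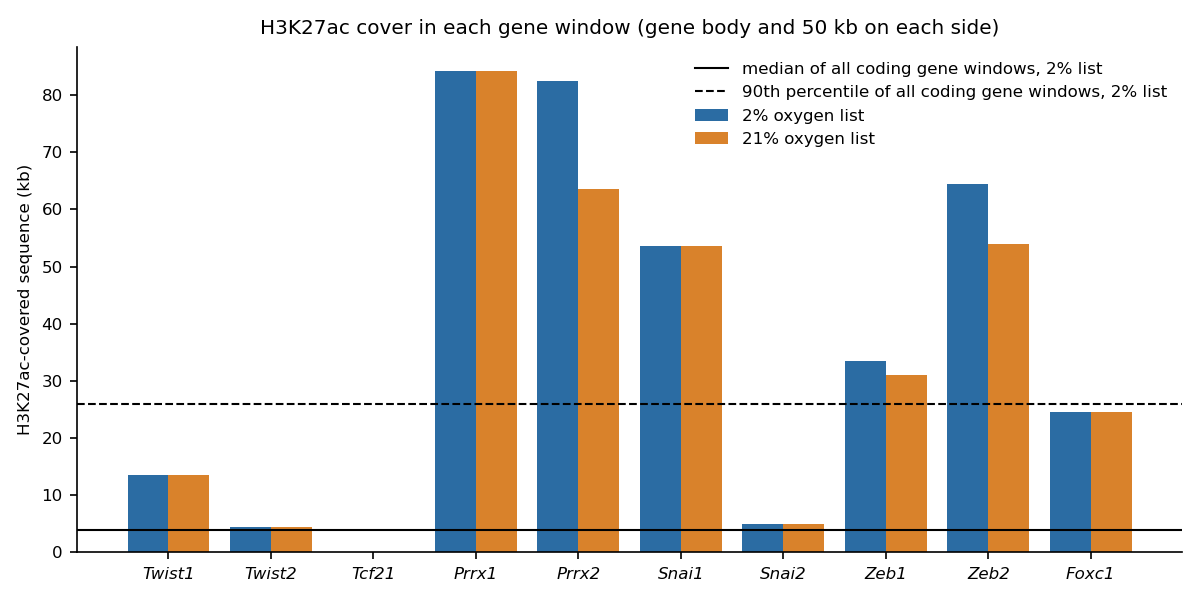
Sequence covered by H3K27ac peaks in the window of each gene, in kb, at 2% and 21% oxygen. Prrx1 and Prrx2 lead at 84.2 and 82.5 kb in hypoxia, and the oxygen levels differ at Prrx2, Zeb1 and Zeb2, where hypoxia is higher.

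Touching peaks of a list were then joined into domains, since a change in either mark splits a segment. The H3K27ac domain at the start was 66.0 kb at Prrx1, 48.0 kb at the downstream Prrx2 start, 36.5 kb at Zeb2, 20.5 kb at Zeb1, 19.0 kb at Foxc1, 16.0 kb at Snai1, 13.5 kb at Twist1 and 5.0 kb at Snai2. Each of these was the same in both lists, and the median domain at a coding start was 3 kb. In hypoxia a domain of 19.0 kb also held the upstream Prrx2 start and a start of Asb6. No H3K27ac peak of the normoxia list held that Prrx2 start. The Prrx1 domain ranked 52 by width among 12835 H3K27ac domains in hypoxia, and that at the downstream Prrx2 start ranked 126. For H3K4me3 the order was another one. Foxc1 came first with 9.0 kb, rank 61 of 13138, followed by Twist1 with 8.0 kb, Prrx1 with 7.5 kb, Zeb2 with 6.0 kb and Snai1 with 5.5 kb, again with a median of 3 kb. Prrx2, with wide H3K27ac, had an H3K4me3 domain of 4.0 kb.

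**Figure D3:**
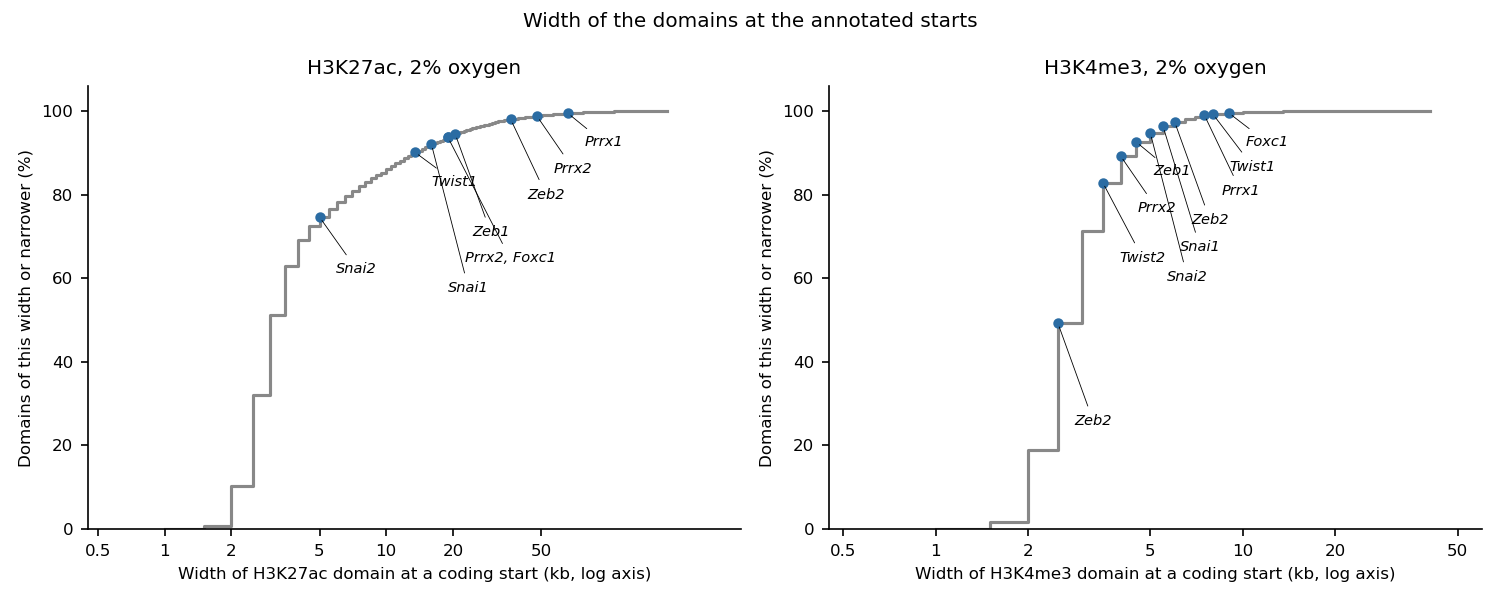
Width of H3K27ac (left) and H3K4me3 (right) domains at coding starts at 2% oxygen, on a log axis in kb, against the percentage of domains of that width or narrower, with the members marked. Prrx1 at 66.0 kb is the widest marked H3K27ac domain and Foxc1 at 9.0 kb the widest marked H3K4me3 domain.

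The main comparison of the study, hypoxia against normoxia, was first read from the presence or absence of a peak. By that measure the lists differed at a minority of the H3K27ac segments near these genes, and each of these was present in hypoxia only. H3K27ac was called in 41 segments in hypoxia and in 36 in normoxia, which covered 366 kb and 334 kb. The windows held 8.75% less H3K27ac sequence in normoxia, and the whole list 2.05% less. Of the 41 segments, 5 were hypoxia-only (12.2%, interval 5.32 to 25.5%), beside 3.82% of all H3K27ac segments. This count fell to 2 without the lowest-scoring 25% of peaks and to 3 with peaks within 1000 bp joined. None was normoxia-only, which allows a share of up to 7.32% by a limit of 3 counts (the Wilson upper bound is 8.57%), beside 1.41% of all segments. The hypoxia-only peaks lay in the windows of 3 of the 10 genes, Prrx2, Zeb1 and Zeb2, beside 7.59% of all coding windows. Among 10 MSC markers, described below, 3 windows also held a hypoxia-only peak. A window with more peaks has more chances to hold one. Of the 6 members with at least 4 shared H3K27ac peaks, 3 had a hypoxia-only peak and 0 a normoxia-only peak, beside 17.7% and 3.16% of all coding windows with at least as many shared peaks. No window had a normoxia-only peak, beside 1.86% of all coding windows. The 20 H3K4me3 segments were the same in both lists, and over the series 0.0616% of H3K4me3 segments were called at 1 oxygen level only, as were peaks in 0.0775% of coding windows. With 5 peaks, 3 of them in the Prrx2 window, the share near the members rests on few loci. These 3 peaks lay at or nearest a start of another gene, Asb6 or Ptges, and 1 of them also held a Prrx2 start.

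Of the 5 hypoxia-only peaks, 4 had no H3K4me3, and 1 lay on the shared H3K4me3 of Ptges. Over the series, 413 of 589 hypoxia-only segments (70.1%) had no H3K4me3. The 47 segments of the windows were spread over the combinations of marks as follows. H3K27ac shared without H3K4me3 made up 48.9% of them and 32.5% of all 22555 segments of the series. Both marks shared made up 27.7% near the members and 32.3% in all, and H3K4me3 alone 12.8% and 31.6%. Of the H3K27ac segments near the members, 14 of 41 carried H3K4me3 (34.1%, interval 21.6 to 49.5%), beside 48.5% of all. The hypoxia-only segments had a median GC content of 52.6%, the shared segments without H3K4me3 48.3% and those with H3K4me3 54.1%. Over the series the same classes had medians of 48.8%, 45.2% and 51.8%, in the same order.

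The score of the shared peaks was compared as well, as a description, because its definition is not stated. Values lay between 50 and 160 or at 1000, and the share at 1000 ranged from 0 to 42.2% between the autosomes and X in the hypoxia H3K27ac list, while the only peak on Y stood at 1000. The scores described here were therefore set only against the other list at the same segment or against peaks of the same chromosome. Of the 36 shared H3K27ac peaks near the members, 17 scored higher in hypoxia, 15 scored the same and 4 scored higher in normoxia. Over all shared peaks these shares were 39.9%, 43.6% and 16.6%. The median difference was 0 near the members and 0 over all shared peaks. Of the 23 peaks under 1000 in both lists, 15 were higher in hypoxia, 4 were equal and 4 were lower, with differences from -15 to 43 and a median of 4. Over all 11015 such peaks of the series, 5027 were higher in hypoxia, 3790 were equal and 2198 were lower, with differences from -76 to 87 and a median of 0. Among the 23 peaks near the members, the largest difference was at the segment upstream of Prrx1, nearest the start of Gorab, with 138 against 95. The segment at Rnf114 in the Snai1 window followed, with 107 against 67. The Prrx2 window held both peaks that stood at 1000 in hypoxia alone. These were the peak at its downstream start and one of 5.5 kb near its upstream edge, with 129 in normoxia. The latter was nearest the start of 1700001O22Rik, 3707 bp away. Of the 36 shared peaks, 13 stood at 1000 in hypoxia and 11 of these in both lists. Over all 14614 shared peaks, 3372 stood at 1000 in hypoxia and 2575 of these in both lists. Peaks at 1000 in hypoxia alone were thus about as common over the series. Higher normoxia scores were found in 4 windows. The segment in the Zeb2 window (117 against 102) lay outside the gene and nearest the start of Gtdc1, and the others were in the windows of Twist2 (96 against 86), Zeb1 (56 against 53) and Prrx1 (89 against 87). The H3K4me3 scores were equal in both lists at all 20 segments, and at 100% of shared H3K4me3 segments in the series. These scores therefore cannot show whether H3K4me3 differed between the oxygen levels.

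**Figure D4:**
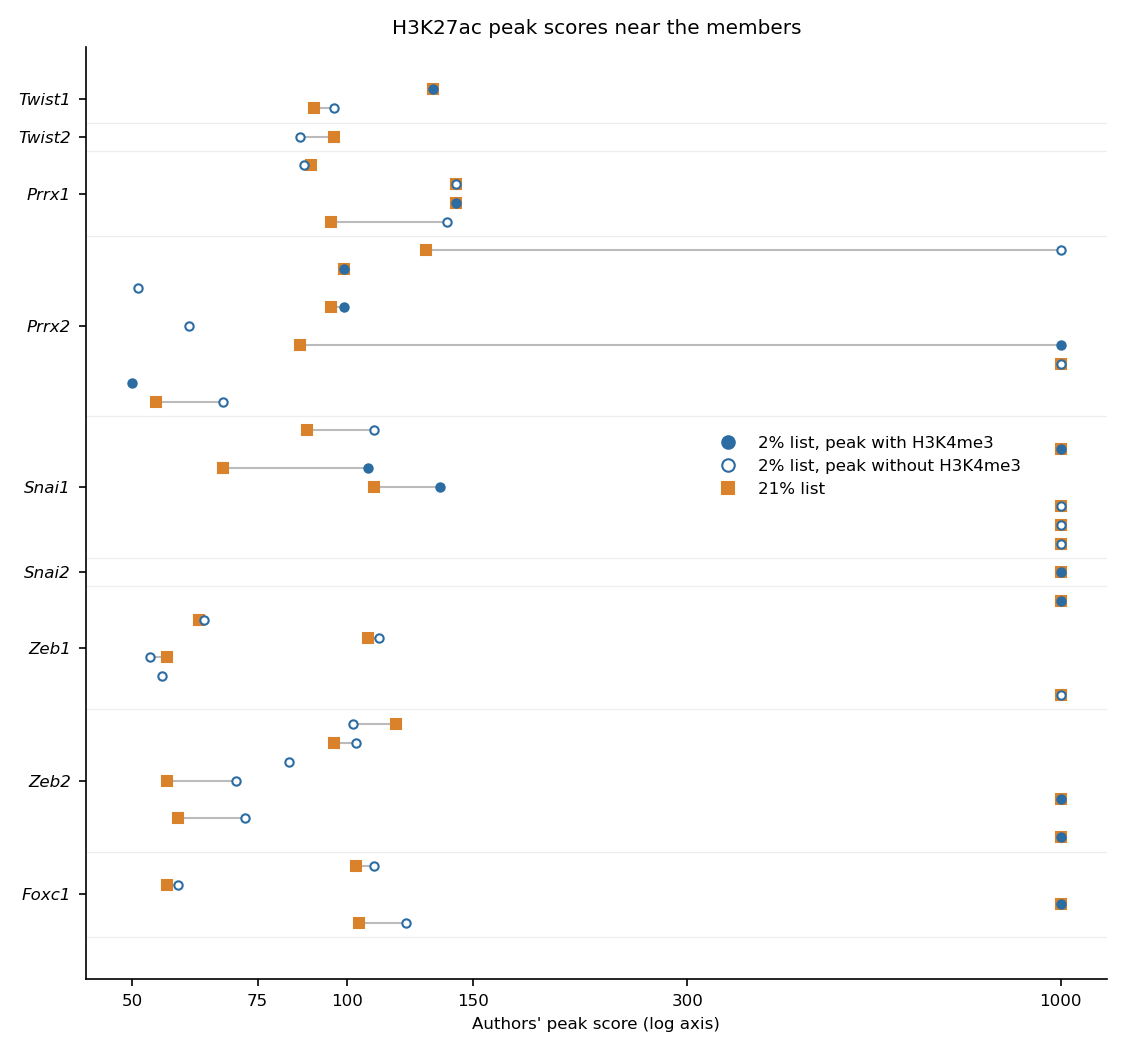
Score of each H3K27ac peak near the members (log axis) by gene, with circles for 2% oxygen (filled where the segment has H3K4me3), squares for 21% oxygen, lines joining the same segment and 1000 as the highest value in the lists. The 5 hypoxia-only peaks score between 50 and 83, and the 2 peaks that reach 1000 in hypoxia alone are in the Prrx2 window.

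Over the promoters of all 10 genes, those shown above included, the E-box CAGGTG was found at Snai1 and Zeb1, in 2 of the 22 stretches of 250 bases before a start. ACGTG was found in 6 stretches, of Twist1, Snai2 and Zeb2, and GCGTG in 8, of Tcf21, Snai1, Zeb2 and Foxc1. Over all 41488 such stretches the shares were 16.6% for CAGGTG, 17.7% for ACGTG and 33.5% for GCGTG. Starts of 1 gene that lie close together share these letters, so the stretches are not independent, and a match does not show binding. None of the 3 motifs was in a stretch of Prrx1, Prrx2 or Twist2.

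To set the 10 factors beside genes of their programme, 6 gene lists were read the same way. Over all coding genes, H3K4me3 lay at a start for 58.9% in each list. The share for H3K27ac was 37.6% in hypoxia and 37.0% in normoxia. Of 34 other mesenchymal transcription factors, 28 had H3K4me3 and 18 had H3K27ac at a start in both lists. Of 20 epithelial genes that Snail and Zeb proteins are known to repress, 10 had H3K4me3, not far from the share of all coding genes. H3K27ac lay at a start of 1 of them, the splicing regulator Esrp2. Cdh1 had H3K4me3 without H3K27ac at its start. Of 18 mesenchymal adhesion, matrix and cytoskeleton genes, 17 had H3K4me3, and 17 had H3K27ac in hypoxia and 16 in normoxia. The gene that differed was Tnc, which encodes the matrix protein tenascin C. The epithelial list had no condition-specific H3K27ac peak in its windows. Of the 34 windows of the other mesenchymal factors, 4 had a hypoxia-only peak, those of Hic1, Gli1, Ebf1 and Meox1. Another 3 had a normoxia-only peak, those of Shox2, Tcf4 and Tcf12. Over all coding windows these shares were 7.59% and 1.86%. The windows of this list thus held peaks of both directions, and a difference from all coding windows was not tested. Wide H3K27ac cover was not particular to the 10 factors, whose windows had a median of 29 kb in hypoxia. The median was 34.5 kb for the adhesion, matrix and cytoskeleton genes, 7 kb for the other mesenchymal factors and 5.75 kb for the epithelial genes.

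The labelled cell type was checked against its markers, beside the same shares of all coding genes, 58.9% for H3K4me3 and 37.6% for H3K27ac in hypoxia. Of 10 MSC markers, 9 had H3K4me3 and 7 had H3K27ac at a start in both lists. Pdgfra, the gene of the sort marker CD140a, had both marks, and Ly6a, a gene of the Sca-1 antigen, had H3K27ac without H3K4me3. Ptprc, which encodes CD45, had no peak of either mark at a start and no H3K27ac in its window. Of 12 haematopoietic markers, 4 had H3K4me3 and 2, Cd68 and Csf1r, had H3K27ac at a start. Of 10 endothelial markers, 3 had H3K4me3 and none had H3K27ac. Hypoxia-only H3K27ac peaks lay in 3 of the 10 MSC marker windows, as for the 10 factors. They lay in 2 of the 12 haematopoietic windows, 2 of the 18 matrix-list windows and 0 of the 10 endothelial ones. Each of these lists had 0 windows with a normoxia-only peak. Median H3K27ac cover of the MSC marker windows was 20.6 kb in hypoxia. The part of other cells in the peaks near the 10 factors was not tested, and a peak cannot be told apart by the cells it came from.

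**Figure D5:**
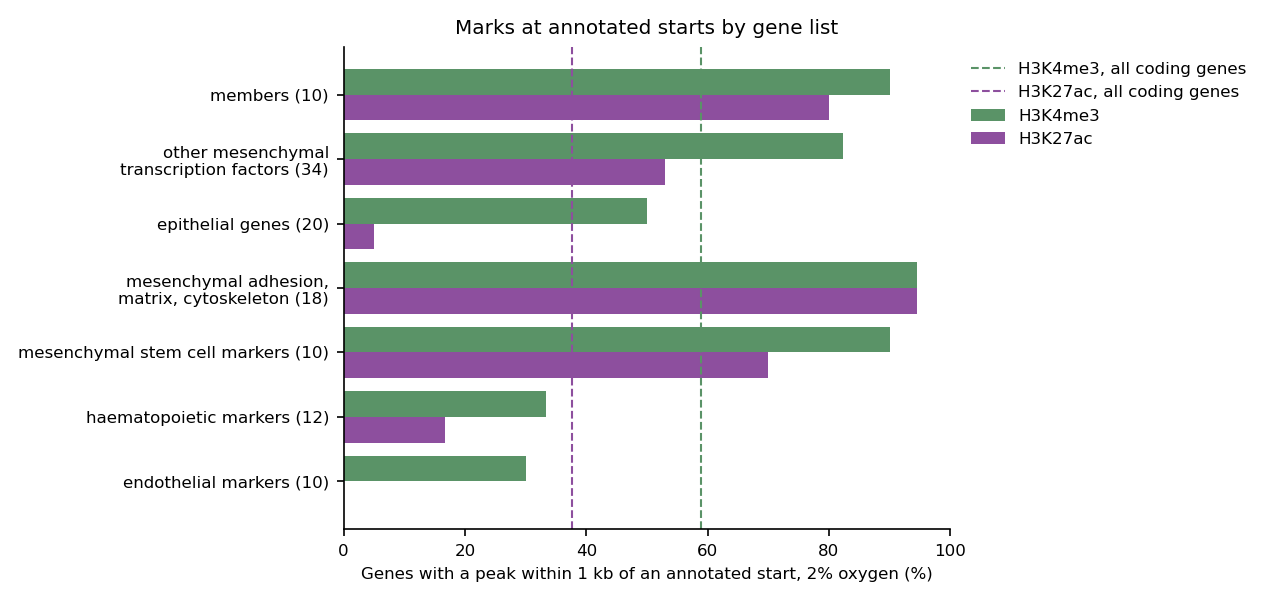
Share of genes in each list, in percent, with a peak within 1 kb of an annotated start at 2% oxygen, by mark, with the number of genes in brackets. H3K27ac lies at 8 of the 10 factors and at 1 of the 20 epithelial genes.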

How the data were processed

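ChIP-seq for H3K27ac and H3K4me3 and input libraries came from mouse MSCs at 2% or 21% oxygen, 2 libraries per group. The authors aligned reads to mm10 (bowtie2), discarded duplicates (Picard MarkDuplicates) and used chromstaR's differential mode for peak calling. Overlapping peaks of the 4 lists had identical borders, so their borders are not independent. The deposited peak score is the authors' own value, and its definition is not given in the sources used here. The values are pooled over libraries, so no test was run. Samples were grouped by their labels.

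Peaks were intersected with GENCODE M21 gene bodies and 50000 bp on each side, and with starts of basic coding transcripts within 1000 bp, in Python 3.11.15 with pandas 2.3.3, numpy 2.4.6, scipy 1.17.1, pysam 0.24.0 and matplotlib 3.10.9. All 104 listed genes matched. The counting was tested on simulated data. The genes, gene lists and comparisons were chosen with earlier results of these data known. All 10 factors are named, listed genes are named where their window holds a condition-specific H3K27ac peak (at most 8 per list, the widest first), sort markers always, and other genes where a peak of a factor's window lies at their start. The comparison of windows with at least 4 shared peaks was added, and Esrp2, Cd68 and Csf1r were named, after the values were seen.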

Additional observations from a re-analysis of the deposited data

How the results depend on the processing

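The number of hypoxia-only H3K27ac peaks near the 10 factors was the value that moved most. It was 5, and fell to 2 without the lowest-scoring 25% of each list, where the Zeb2 peak remained and the peak at Rnf114 in the Snai1 window was added because its normoxia score fell out. Scores are not on 1 scale across chromosomes, so the lowest-scoring 25% of each chromosome were also left out, an alternative chosen after seeing the data, and the count was again 2, with the same peaks. It was 3 when peaks within 1000 bp were joined, where the 2 peaks of the Prrx2 window at or nearest a start of Asb6 merged with a shared one. With flanks of 20000 and 100000 bp it was 4 and 5, and with whole peaks inside the window 5. Normoxia-only peaks numbered 0 under each of these 6 alternatives. H3K27ac peaks ranged from 28 to 54 in hypoxia and from 25 to 49 in normoxia. H3K27ac lay at a start of 8 genes and H3K4me3 at a start of 9 with the peak holding the start or a distance of 2500 bp, and without the lowest-scoring 25% they were 8 and 6, or 8 and 8 with the 25% taken within each chromosome. The median score difference was 0 with both flanks and without the lowest-scoring 25% by either way. No paired analysis was possible because each list pools both libraries of its group and carries no replicate number, and for the same reason no library could be left out. Depth is unknown, so a peak missing from a list was not called and is not shown to be absent.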

Other observations

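Other genes of the mesenchymal programme had condition-specific H3K27ac peaks in their windows, each without a replicate check. Hic1, a zinc-finger factor of quiescent mesenchymal progenitors, had a hypoxia-only peak of 8.5 kb with a score of 64, Ebf1 one of 6 kb with 66 and Meox1 one of 5 kb with 56. The hypoxia-only peak of 7 kb in the window of Gli1, a transcription factor of Hedgehog signalling, was nearest the start of Ddit3. Shox2, a limb homeodomain factor, had a normoxia-only peak of 10 kb with a score of 50, the lowest value in the lists. Normoxia-only peaks of 3.5 kb and 2 kb lay in the windows of Tcf4 and Tcf12, which encode partners of Twist proteins, with scores of 80 and 72.

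Among MSC markers, Cxcl12, a chemokine of the bone-marrow niche, had a hypoxia-only peak of 9.5 kb with a score of 52. Thy1 had one of 3 kb with a score of 55 and Eng one of 0.5 kb with 57, nearest the start of St6galnac6. In the matrix list, the peak at Tnc was 3.5 kb wide with a score of 52, and that in the window of Mmp14, 2.5 kb with 86, was nearest Lrp10. The hypoxia-only peaks in the windows of Cd79a and Vav1 were nearest Arhgef1 and Trip10.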
